A study of Homo sapiens with 21 samples.

Results

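Collagen chain genes were followed through RNA-seq and DRIP-seq of MDA-MB-436 cells in which RNF8 was knocked down. The genes were taken by name alone, as every symbol made of COL, a type number, the letter A and a chain number, and 44 of the 26485 genes in the count table qualified. The rule itself uses no measured value, but it was set with earlier results of these data known. Collagens are extracellular proteins in which 3 chains wind into a triple helix, and each chain has its own gene. The chains are built from many short repeats, so their genes are usually long and divided into many exons. Fibrillar collagens form the cables of connective tissue, type IV forms the network of basement membranes, type VI forms beaded filaments around cells, and the FACIT collagens decorate fibrils. In breast tumours most fibrillar collagen is made by stromal fibroblasts, while carcinoma cells make basement membrane and cell-surface collagens.

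MDA-MB-436 is an established human breast cancer line with mutant BRCA1. The cells received, by lentivirus, a doxycycline-inducible hairpin against RNF8 (shRNF8) or a control hairpin of the same kind (shScr). The RNF8 protein adds ubiquitin to chromatin at DNA breaks, and the title of the series ties it to XRN2, an exonuclease of transcription termination, and to the removal of R-loops. An R-loop is a stretch in which RNA pairs with 1 DNA strand and displaces the other. RNA-seq was done on 3 shScr and 3 shRNF8 libraries. DRIP-seq, which pulls DNA-RNA hybrids from sonicated chromatin with the S9.6 antibody, covered 2 shScr and 4 shRNF8 libraries, and a matching set was treated with RNase. The labels name no doxycycline dose or time. Separate cultures behind the libraries of a group are not stated either. The spread that the p-values rest on may therefore be technical.

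The RNA libraries held 18121181 to 20006954 counts and 17212 to 17835 detected genes. RNF8 stood at 28.9, 29.1 and 28.0 CPM (counts scaled to the size of each library, with TMM) in the shScr libraries and at 9.33, 9.99 and 7.94 in the shRNF8 libraries. The library shScr replicate 1 stood apart from the other shScr libraries. On the first principal component, which held 45.2% of the variance, it lay at -14.7, among the shRNF8 libraries at -23.4 to -10.7, while shScr replicates 2 and 3 lay at 31.2 and 30.4. Tests of single genes below are therefore given without it as well where the call changed or the result turns on it. That choice was made after its place was seen, and leaving out a control near shRNF8 favours a larger difference. In edgeR 3865 genes were called without it, against 356 with all libraries and 46 to 132 without any other single library. The adjusted p of fits without it are therefore descriptions. Among the S9.6 libraries, shRNF8 replicates 3 and 4 stood apart, with peaks over 83511847 and 79030495 bp against 34418316 to 47615081 bp in the other 4. The peak names inside the lists of these 2 libraries carry the stems of replicates 1 and 2, although the peaks differ. Markers of the labelled cells were present. VIM, a mesenchymal filament protein, stood at 893 to 1149 CPM, and the 4 mesenchymal markers summed to 1064 to 1222 CPM in shScr and 1151 to 1318 in shRNF8. The 7 luminal or epithelial markers summed to 860 to 1446 CPM in shScr and 1056 to 1105 in shRNF8, with KRT8 at 496 to 888 CPM and KRT18 at 306 to 506 over the 6 libraries, and ESR1 and PGR at 3 and 4 counts over all 6 libraries. The 7 fibroblast markers summed to 2.52 to 3.63 CPM in shScr and 2.36 to 2.72 in shRNF8, mostly from FAP, and DCN, LUM and POSTN had 0 counts. The 3 endothelial markers summed to at most 1.35 CPM, with CDH5 at 0 counts. The 3 leukocyte markers summed to 9.94 to 12.9 CPM in shScr and 6.24 to 10.4 in shRNF8, nearly all from CD14, with CD3E at 0 counts. The part of other cells in the collagen values was not tested.

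Collagen messenger RNA in these cells came from a limited set of chains. Of the 44 genes, 23 passed the filter on low counts, 21 did not, and 13 reached a mean of 5 CPM or more. Summed over all chains, the level was 1067, 1342 and 1470 CPM in the shScr libraries and 1182, 1200 and 977 in the shRNF8 libraries. The groups overlapped. Levels between genes were compared per kb of exon. COL6A2, a chain of the type VI beaded filament, led at 73.9 CPM per kb, followed by its partner COL6A1 at 34.9 and by COL18A1, the basement membrane collagen whose end is released as endostatin, at 28.1. COL16A1, a FACIT chain, stood at 17.9 CPM per kb, COL4A2 of the basement membrane at 16.3 and the fibrillar COL5A1 at 15.4.

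Chains that assemble together were often present at unequal levels. Type VI collagen is built from COL6A1, COL6A2 and most often COL6A3, and COL6A3 had 1, 7, 4, 3, 0 and 6 counts in the 6 libraries. Type I collagen is built from COL1A1 and COL1A2. COL1A1 stood at 2.67 CPM on average and COL1A2 had 0 counts in every library. COL3A1, the fibrillar chain of type III, had 3 counts in all, and COL2A1 of cartilage had 6. COL21A1, COL24A1, COL6A6 and COL9A1 also had 0 counts in every library. The other genes below the filter had at most 49 counts over the 6 libraries, the highest being COL26A1. For a gene with 0 counts the depth allows up to 3 counts per library, for counting error only.

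In the comparison of shRNF8 with shScr, 1 collagen gene rose and 3 fell in edgeR's quasi-likelihood test at an adjusted p under 0.05. COL17A1 was higher, and COL27A1, COL4A1 and COL7A1 were lower. Of the 23 tested genes, 13.0% were called lower and 4.35% higher, against 1.57% and 0.97% of all 14018 genes tested. The groups did not overlap and shRNF8 was lower for 7 tested collagen genes (30.4%, all genes 12.8%), and higher for 2 (8.70%, all genes 12.5%). The fitted change was below 0 for 16 of the 23 (69.6%, all genes 50.8%). The median log2 fold change of the 23 was -0.40, against -0.0048 for all genes tested. Without shScr replicate 1, 11 of the 23 were called lower (47.8%, all genes 14.3%) and 2 higher (8.70%, all genes 12.8%), with a median log2 fold change of -0.51. In bulk RNA, fewer cells that make a chain and less RNA per cell cannot be told apart.

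**Figure D1:**
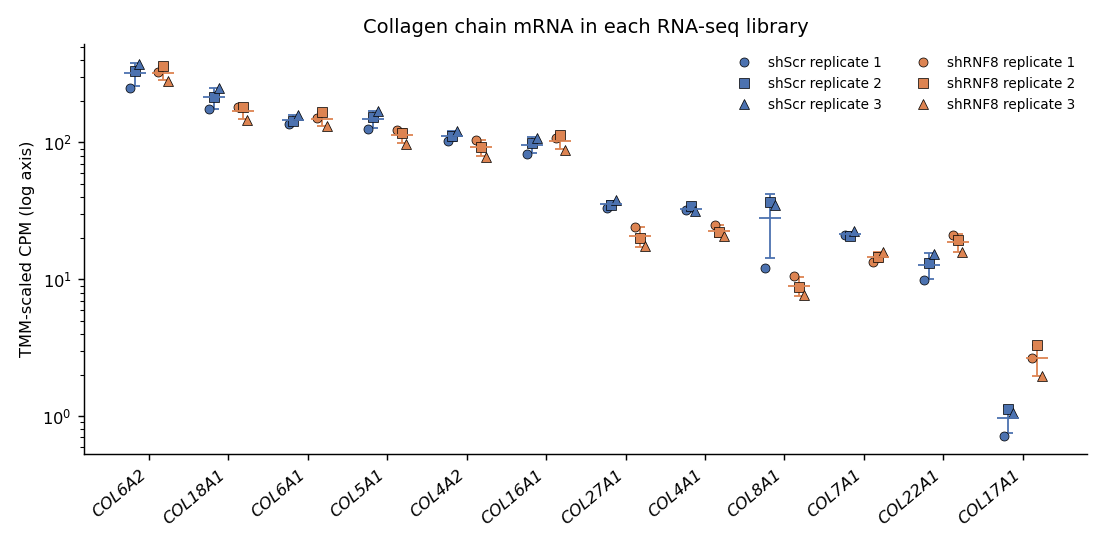
TMM-scaled CPM (log axis) of 12 collagen chain genes in each RNA-seq library, with shScr in blue, shRNF8 in orange and 1 marker shape per replicate. Horizontal bars are group means and vertical bars SD (n = 3). COL8A1 in shScr replicate 1 lies at 12.2 CPM, near the shRNF8 libraries, while COL27A1, COL4A1 and COL7A1 separate with all 3 libraries of each group.

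Among the fibrillar chains, COL27A1, a fibrillar collagen of cartilage and other tissues, fell. The gene lies at chr9:114155545-114312516 (hg38) on the plus strand. Its level was 33.3, 34.8 and 37.8 CPM in the shScr libraries and 24.2, 20.2 and 17.6 in the shRNF8 libraries. Every shRNF8 library was below every shScr library, shScr replicate 1 included. The mean went from 35.3 ± 2.31 to 20.7 ± 3.35 CPM (SD, n = 3 each), a log2 fold change of -0.77 with an SE of 0.13 (edgeR, adjusted p = 0.0124). COL27A1 passed the test in 3 of the 6 fits that left out a library, with adjusted p of 0.000123 without shScr replicate 1, 0.0371 without shScr replicate 2 and 0.0322 without shRNF8 replicate 1. It missed it without shScr replicate 3 (0.0533), shRNF8 replicate 2 (0.101) and shRNF8 replicate 3 (0.0892).

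COL5A1, which nucleates and limits the width of type I fibrils, lies at chr9:134641805-134844842 (hg38). Its level was 125, 153 and 169 CPM in shScr and 124, 116 and 97.9 in shRNF8. The groups did not overlap, but shScr replicate 1 and shRNF8 replicate 1 lay next to each other. The log2 fold change was -0.40 (SE 0.12) which missed the threshold (edgeR, adjusted p = 0.107). Without shScr replicate 1, COL5A1 passed the test at -0.51 (edgeR, adjusted p = 0.000826). COL1A1 was low, at 3.56 ± 1.26 CPM in shScr and 1.78 ± 0.606 in shRNF8 (SD, n = 3 each), and passed only without shScr replicate 1. COL5A2, the usual partner of COL5A1, stood at 5.12 and 4.24 CPM and was not called in either fit. Neither were COL5A3 and COL11A2, both near 1 CPM. COL11A2 is annotated on alternate chr6 contigs as well, so its counts are uncertain.

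Among the basement membrane chains, COL4A1 fell. It forms, with COL4A2, the type IV trimer found in nearly all basement membranes. COL4A1 stood at 31.9, 34.1 and 31.4 CPM in the shScr libraries and at 25.0, 22.0 and 20.9 in the shRNF8 libraries. All 3 shRNF8 libraries were below all 3 shScr libraries. The log2 fold change was -0.52 with an SE of 0.11 (edgeR, adjusted p = 0.0338). COL4A2 stood at 102, 111 and 122 CPM in shScr and at 104, 93.2 and 78.8 in shRNF8, where shRNF8 replicate 1 lay inside the shScr range. Its log2 fold change was -0.28 (SE 0.11), which did not pass with all libraries (edgeR, adjusted p = 0.207) and passed at -0.33 without shScr replicate 1 (adjusted p = 0.0210).

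COL4A1 and COL4A2 start 127 bp apart on opposite strands of chromosome 13 and are transcribed away from each other. Per kb of exon, COL4A2 exceeded COL4A1 by 3.82, 3.87 and 4.60 times in the shScr libraries and by 4.97, 5.03 and 4.50 times in the shRNF8 libraries. The ranges of the 2 groups overlapped. An exact two-sided permutation test of the log ratio gave p = 0.20 (smallest possible 0.10), or 0.60 after Benjamini-Hochberg adjustment over 3 chain ratios. With 3 libraries a group this test cannot reach 0.05 and does not tell whether the 2 genes responded alike. COL6A2 exceeded COL6A1 by 2.12 ± 0.274 times in shScr and 2.10 ± 0.0124 times in shRNF8 (SD, n = 3 each; exact permutation p = 1.0). COL4A5 exceeded COL4A6 by 5.64 ± 1.62 and 5.66 ± 1.13 times (SD, n = 3 each; exact permutation p = 1.0). Without shScr replicate 1 the shScr means of the 3 ratios were 4.24, 2.28 and 6.58. COL4A5 and COL4A6, the genes of the X-linked type IV chains, start 347 bp apart and were both fitted lower. COL4A5 had a log2 fold change of -0.64 (edgeR, adjusted p = 0.154) and COL4A6 of -0.55 (adjusted p = 0.257), and without shScr replicate 1 COL4A5 passed at -0.88 (adjusted p = 4.77e-05). COL4A3 and COL4A4, the chains of the kidney filter, had 19 and 26 counts in all.

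COL7A1, the only chain of type VII, forms the anchoring fibrils that tie epithelium to the matrix below. It lies at chr3:48564073-48595160 (hg38) on the minus strand. Its level was 21.2, 20.8 and 22.4 CPM in the shScr libraries and 13.3, 14.6 and 15.7 in the shRNF8 libraries. The groups were well apart and the spread within each was small, at SDs of 0.865 and 1.22 CPM. The log2 fold change was -0.56 with an SE of 0.12 (edgeR, adjusted p = 0.0338).

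The single chain that rose was COL17A1, a transmembrane collagen of the hemidesmosome, the structure that fixes epithelial cells to the basement membrane. It lies at chr10:104031288-104085880 (hg38) on the minus strand. COL17A1 was scarce, at 0.721, 1.14 and 1.06 CPM in the shScr libraries and 2.67, 3.33 and 1.96 in the shRNF8 libraries. Every shRNF8 library was above every shScr library. Its log2 fold change was 1.44 with an SE of 0.32 (edgeR, adjusted p = 0.0402), on 206 counts in all 6 libraries. COL13A1, another transmembrane collagen, stood at 1.64 ± 0.520 CPM in shScr and 0.684 ± 0.286 in shRNF8 (SD, n = 3 each), with a log2 fold change of -1.26 (edgeR, adjusted p = 0.119). Without shScr replicate 1, COL13A1 passed at -1.32 (edgeR, adjusted p = 0.0272).

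The calls of COL4A1, COL7A1 and COL17A1 rested on the whole set of libraries. Each of the 3 passed in 1 of the 6 fits that left out a library, the one without shScr replicate 1, at edgeR adjusted p of 0.00166, 0.00192 and 0.00761. In the other 5 fits the adjusted p ran from 0.0843 to 0.173 for COL4A1, 0.0920 to 0.165 for COL7A1 and 0.0917 to 0.190 for COL17A1. Their log2 fold changes stayed within -0.60 to -0.46, -0.62 to -0.50 and 1.25 to 1.62 over the 6 fits.

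COL8A1, a short-chain collagen of vessel walls and the cornea, had the lowest fitted value of all members. It stood at 12.2, 36.6 and 35.1 CPM in the shScr libraries and at 10.5, 8.76 and 7.71 in the shRNF8 libraries. shScr replicate 1 lay far below the other shScr libraries and just above the shRNF8 range. The log2 fold change was -1.63 (SE 0.39) and did not pass (edgeR, adjusted p = 0.0781). Without shScr replicate 1 it was -1.99 (adjusted p = 7.50e-09). COL12A1, a FACIT chain of tendon and tumour matrix, had the same layout, at 53.6, 94.8 and 92.1 CPM in shScr and 59.1, 47.0 and 46.6 in shRNF8. Here shScr replicate 1 lay inside the shRNF8 range, and the log2 fold change went from -0.65 (edgeR, adjusted p = 0.118) to -0.87 without that library (adjusted p = 9.87e-06).

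COL22A1, a FACIT chain of tissue junctions, was fitted higher, at 9.94, 13.1 and 15.3 CPM in shScr and 21.2, 19.3 and 15.7 in shRNF8. The groups did not overlap, though shScr replicate 3 and shRNF8 replicate 3 nearly met. The log2 fold change of 0.55 (SE 0.17) did not pass (edgeR, adjusted p = 0.110), and the 0.40 found without shScr replicate 1 did (adjusted p = 0.0378). COL16A1 stood at 82.0, 99.0 and 108 CPM in shScr and at 108, 114 and 88.3 in shRNF8, with overlapping groups.

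The most abundant chains showed small differences. COL6A2 stood at 251, 334 and 374 CPM in shScr and 326, 358 and 283 in shRNF8, and COL6A1 at 135, 143 and 160 against 150, 167 and 131. Both pairs of groups overlapped throughout. The range of 1.96 SE on each side of the log2 fold change ran from -0.27 to 0.29 for COL6A2. It ran from -0.18 to 0.24 for COL6A1 and from -0.14 to 0.34 for COL16A1. With so few libraries this range is narrower than a 95% interval from the quasi-likelihood test. COL18A1 stood at 175, 216 and 248 CPM in shScr and 182, 181 and 145 in shRNF8, with shScr replicate 1 inside the shRNF8 range. The fitted log2 difference was -0.33 (edgeR, adjusted p = 0.199), and -0.45 without shScr replicate 1 (adjusted p = 0.00256). COL18A1 and COL4A2 overlap antisense genes, and the counting used no strand, so reads of the partners cannot be told apart.

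**Figure D2:**
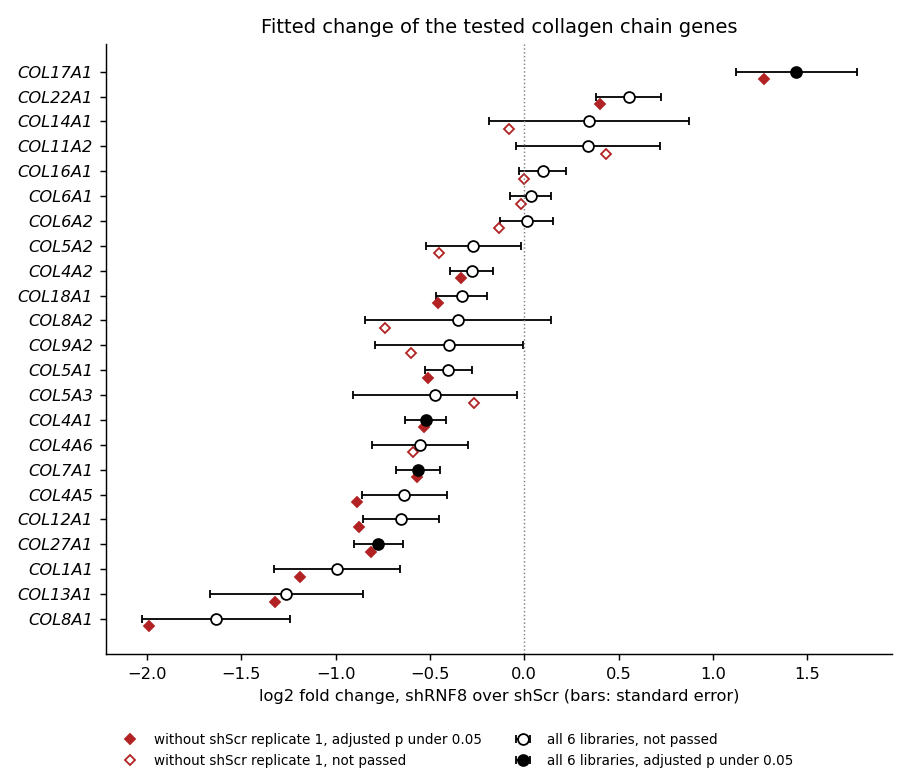
Fitted log2 fold change (shRNF8 over shScr) of the 23 tested collagen chain genes, with bars for the standard error. Circles use all 6 RNA-seq libraries, diamonds leave out shScr replicate 1, and filled symbols passed an adjusted p of 0.05. With all libraries 4 genes passed, and without shScr replicate 1, 13 did.

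The genes that serve collagen were read beside the chains, from lists for modification and folding, secretion and processing, crosslinking, receptors, degradation and matrix partners. These lists were chosen with earlier results of these data known, so the shares called in them, here and below, are descriptions. Of 71 such genes tested, 3 rose (4.23%, all genes 0.97%) and 2 fell (2.82%, all genes 1.57%), and the median log2 fold change was -0.067. Without shScr replicate 1, 8 passed as higher (11.3%, all genes 12.8%) and 22 as lower (31.0%, all genes 14.3%), with a median of -0.16. CRTAP, a partner of the prolyl 3-hydroxylase that modifies collagen in the endoplasmic reticulum, fell. It stood at 251, 257 and 263 CPM in shScr and 182, 184 and 184 in shRNF8, with no overlap (log2 fold change -0.49, edgeR, adjusted p = 0.0116, and 0.000113 without shScr replicate 1). With all libraries the other 18 tested genes of modification and folding did not pass. Without shScr replicate 1, P4HA1, P4HA2, PLOD1, PLOD2 and COLGALT1 passed as lower and PPIB as higher (edgeR, adjusted p from 4.48e-05 to 0.0456). ADAMTS2, a protease that removes the amino-terminal propeptide of fibrillar procollagens, fell, at 6.34, 14.3 and 12.6 CPM in shScr and 4.11, 4.36 and 5.14 in shRNF8 (log2 fold change -1.29, edgeR, adjusted p = 0.0362). Its lowest shScr value was again that of replicate 1, and without that library the log2 fold change was -1.56 (adjusted p = 2.06e-06).

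Of 9 tested genes of the degradation list, which holds both proteases and their inhibitors, 1 of each kind rose (all genes 0.97%). Without shScr replicate 1, 4 of the 9 passed as higher (all genes 12.8%) and 2 as lower (all genes 14.3%). The additions were MMP9 and TIMP1 as higher and MMP14 and CTSK as lower. MMP1, the interstitial collagenase, stood at 224, 263 and 229 CPM in shScr and 343, 415 and 385 in shRNF8, with no overlap (log2 fold change 0.67, edgeR, adjusted p = 0.00809, and 9.42e-05 without shScr replicate 1). TIMP3, a matrix-bound inhibitor of metalloproteinases, stood at 16.7, 13.2 and 15.5 CPM in shScr and 27.5, 23.7 and 30.4 in shRNF8 (log2 fold change 0.84, edgeR, adjusted p = 0.0107, and 6.87e-05 without shScr replicate 1). LAMA5, a laminin chain of mature basement membrane, had a log2 fold change of -0.60 and did not pass (edgeR, adjusted p = 0.0587), and passed at -0.71 without shScr replicate 1 (adjusted p = 0.000154). With all libraries none of the 6 crosslinking genes and none of the 7 tested receptor genes passed. Without shScr replicate 1, LOXL2 and TGM2 passed as lower and LOXL4 as higher (edgeR, adjusted p = 0.000438, 0.0302 and 0.0447). The receptors ITGA2, DDR1 and MRC2 passed as lower in that fit (edgeR, adjusted p = 0.000300, 0.00579 and 0.00144). LOX, which crosslinks collagen, stood at 2.52, 12.5 and 10.5 CPM in shScr and 2.13, 3.33 and 2.52 in shRNF8, with shScr replicate 1 at the shRNF8 level (edgeR, adjusted p = 0.133). Without that library LOX passed at a log2 fold change of -2.10 (adjusted p = 7.08e-07).

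S9.6 peaks were counted over each gene and the 5000 bp after its end. A peak overlapped 23 of the 44 collagen genes in at least 1 S9.6 library, 52.3% against 54.9% of 26022 genes. In all 6 libraries a peak was present for 12 of the 44, 27.3% against 29.6%. Both shares lay near those of all genes, although collagen genes are long, with a median span of 133206 bp against 17238 bp. Of the 13 chains at 5 CPM or more, 11 had a peak and 8 had one in all 6 libraries. Of the 31 below that level, 12 had a peak and 4 had one in all 6. Across the 44 genes, Spearman's rho between CPM per kb and the mean share of the window covered was 0.63, as a description, over genes that share the same libraries in each assay.

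Expression and peaks did not always go together. COL4A1 and COL8A1 were expressed and had no S9.6 peak in any library. COL20A1 and COL23A1 were below the filter on counts, with 12 and 27 counts in all, and carried a peak in all 6. The region shared by the 6 libraries in COL20A1 lay at chr20:63280186-63296277 (hg38), mostly upstream of the gene start at 63293186. In COL23A1 the shared region had its midpoint past the counted window, and the neighbouring gene PHYKPL reaches into that window. Peaks were counted by overlap, so those over a shared stretch could belong to either gene. COL20A1, a FACIT chain, had 1 and 1 peaks in shScr and 2, 4, 1 and 1 in shRNF8. COL23A1, a transmembrane chain, had 3 and 2 in shScr and 1, 7, 5 and 6 in shRNF8. The groups overlapped in both genes. COL4A2 had 6 and 2 peaks in shScr and 3, 5, 5 and 4 in shRNF8, on 0.765% to 1.29% of its window. COL8A2, the short-chain partner of COL8A1, had 3 and 5 in shScr and 4, 4, 3 and 7 in shRNF8, and ADPRHL2 reaches into its window. The groups overlapped for these 2 genes as well.

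The number of collagen genes with a peak was 20 and 13 in the shScr libraries and 15, 15, 19 and 18 in the shRNF8 libraries. The means were 16.5 and 16.75, a difference of 0.25 (exact two-sided permutation test over 15 splits, p = 1.0, smallest possible 0.0667). The share of all S9.6 peaks that lay over collagen genes was 0.382% and 0.414% in shScr and 0.380%, 0.443%, 0.332% and 0.400% in shRNF8. The groups overlapped in both measures (exact permutation p = 0.733 for the share). After RNase, 2 and 2 collagen genes had a peak in the shScr libraries and 0, 0, 3 and 1 in the shRNF8 libraries. All 6 RNase-treated libraries lay far below all 6 S9.6 libraries. The mean difference within hairpins was 15.1 genes (exact two-sided permutation test within hairpins, p = 0.00476, the smallest that the 420 arrangements give). RNase-treated libraries held 254 to 1912 peaks in all, against 32358 to 50963 in the S9.6 libraries. Of all genes, 0.238% to 2.11% had a peak in the RNase-treated libraries and 36.5% to 45.2% in the S9.6 libraries. The test therefore reflects the peak lists as a whole and does not set collagen genes apart.

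**Figure D3:**
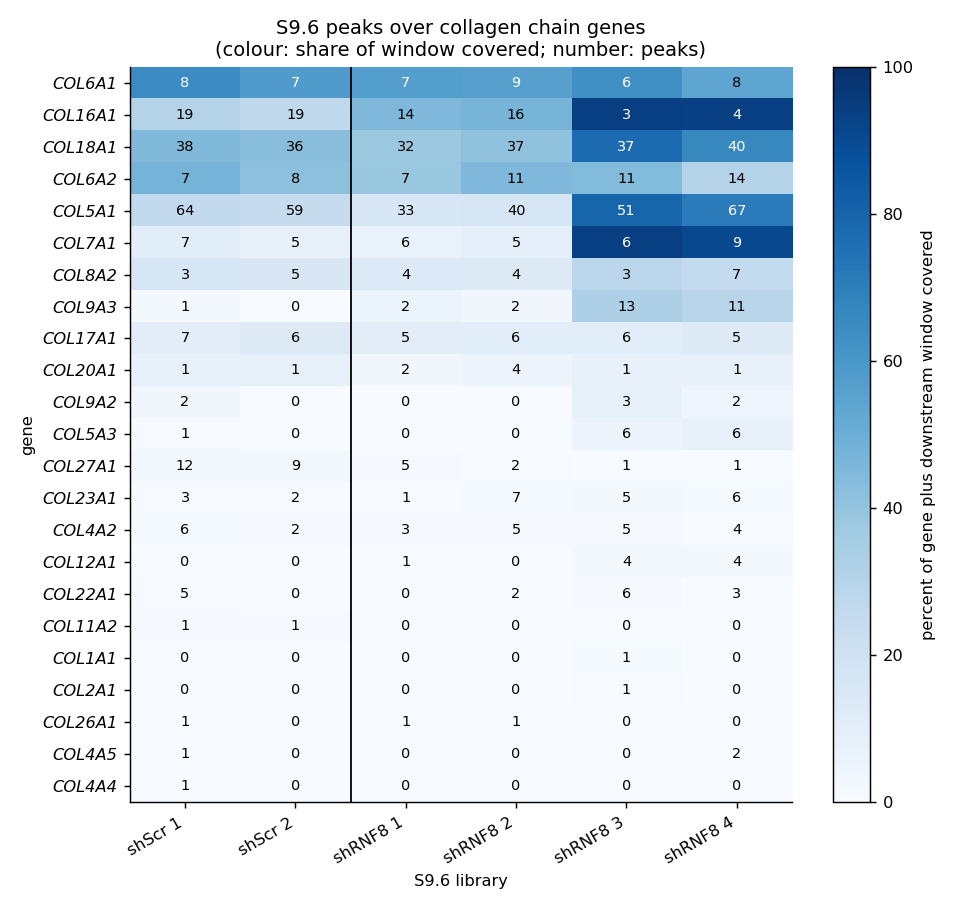
Share of each gene and the 5000 bp after it covered by S9.6 peaks (colour, percent) and the number of peaks (printed in each cell) for the 23 collagen chain genes with a peak, in the 2 shScr and 4 shRNF8 libraries. COL16A1, COL7A1, COL5A1 and COL18A1 are darkest in shRNF8 replicates 3 and 4, COL6A1 is over 50% covered in all 6, and COL27A1 has 12 and 9 peaks in shScr and at most 5 in shRNF8.

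Peaks were spread along the introns of a few genes. Counted over the 6 libraries, peaks met collagen genes 985 times, and COL5A1 and COL18A1 together took 54.2% of these. The summit lay in an intron for 77.5%, in an exon for 10.3%, near the gene end for 7.82% and within 1000 bp of the start for 2.54%. Introns also hold most bases of these genes, as exons took 8.51 kb of the 203038 bp of COL5A1. In COL18A1 they took 6.80 kb of 108584 bp. A preference for introns was not tested. COL5A1 had 64 and 59 peaks in shScr and 33, 40, 51 and 67 in shRNF8, with overlapping groups. COL18A1 had 38 and 36 against 32, 37, 37 and 40.

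COL6A1, at chr21:45981749-46005049 (hg38), had steady cover. Peaks took 64.6% and 58.0% of its window in shScr and 57.0%, 56.0%, 62.9% and 53.8% in shRNF8. It was the only collagen gene at least 50% covered in all 6 libraries, 1 of 23 (4.35%) against 9.94% of all genes with a peak. COL6A2, which lies downstream of it on the same strand, was covered for 47.3% and 41.6% in shScr and 38.9%, 45.0%, 44.0% and 30.6% in shRNF8. COL17A1, the chain that rose in RNA, was covered for 10.5% and 12.5% in shScr and 10.3%, 10.9%, 10.8% and 12.4% in shRNF8. In all 3 genes the groups overlapped.

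A second set of genes split the shRNF8 libraries. COL7A1 was covered for 10.9% and 7.27% of its window in shScr, for 6.80% and 8.77% in shRNF8 replicates 1 and 2, and for 93.8% and 90.6% in replicates 3 and 4. COL16A1 was covered for 30.5% and 27.0% in shScr and for 45.0%, 47.2%, 94.0% and 93.5% in shRNF8. COL5A1 was covered for 26.0% and 24.5% in shScr and for 15.6%, 15.8%, 79.5% and 70.9% in shRNF8. COL18A1 was covered for 44.9% and 43.0% in shScr and for 37.9%, 40.8%, 77.0% and 66.0% in shRNF8. In each of these genes shRNF8 replicates 3 and 4 were the 2 highest, and for COL5A1 and COL18A1 replicates 1 and 2 lay below shScr. These 4 were the collagen genes at least 50% covered in replicates 3 and 4 and in none of the other 4 libraries, a level chosen after the values were seen (17.4% of the 23, all genes with a peak 8.51%). Cover was highest in these 2 libraries for 10 of the 23 (43.5%, all genes 53.2%). The 2 libraries differ from the rest over the whole genome, as given above, and the part of that in these values was not tested.

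COL16A1 shows that peak number and cover can move apart. It had 19 and 19 peaks in shScr, 14 and 16 in shRNF8 replicates 1 and 2, and 3 and 4 in replicates 3 and 4. Every shRNF8 library thus had fewer peaks but more covered bases than every shScr library. COL16A1 kept that order in replicates 1 and 2 alone, at 45.0% and 47.2% against 30.5% and 27.0%.

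COL27A1 was lower in both assays. It had 12 and 9 S9.6 peaks in the shScr libraries and 5, 2, 1 and 1 in the shRNF8 libraries. Every shRNF8 library was below both shScr libraries, also by bases, at 2.66% and 2.35% of the window in shScr and 1.06%, 0.427%, 0.169% and 0.235% in shRNF8. Of these, shRNF8 replicates 3 and 4 stood apart over the genome, and the part of that in these values was not tested. COL11A2 and COL16A1 were the other genes with fewer peaks and no overlap, so 3 of 23 did so (13.0%, all genes with a peak 8.54%). By bases 2 of 23 were lower (8.70%, all genes 7.52%), COL27A1 and COL11A2. These shares are near those of all genes. Peaks in COL27A1 were weak, with a highest fold enrichment, as deposited by the authors, of 3.66 to 6.48 per library.

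**Figure D4:**
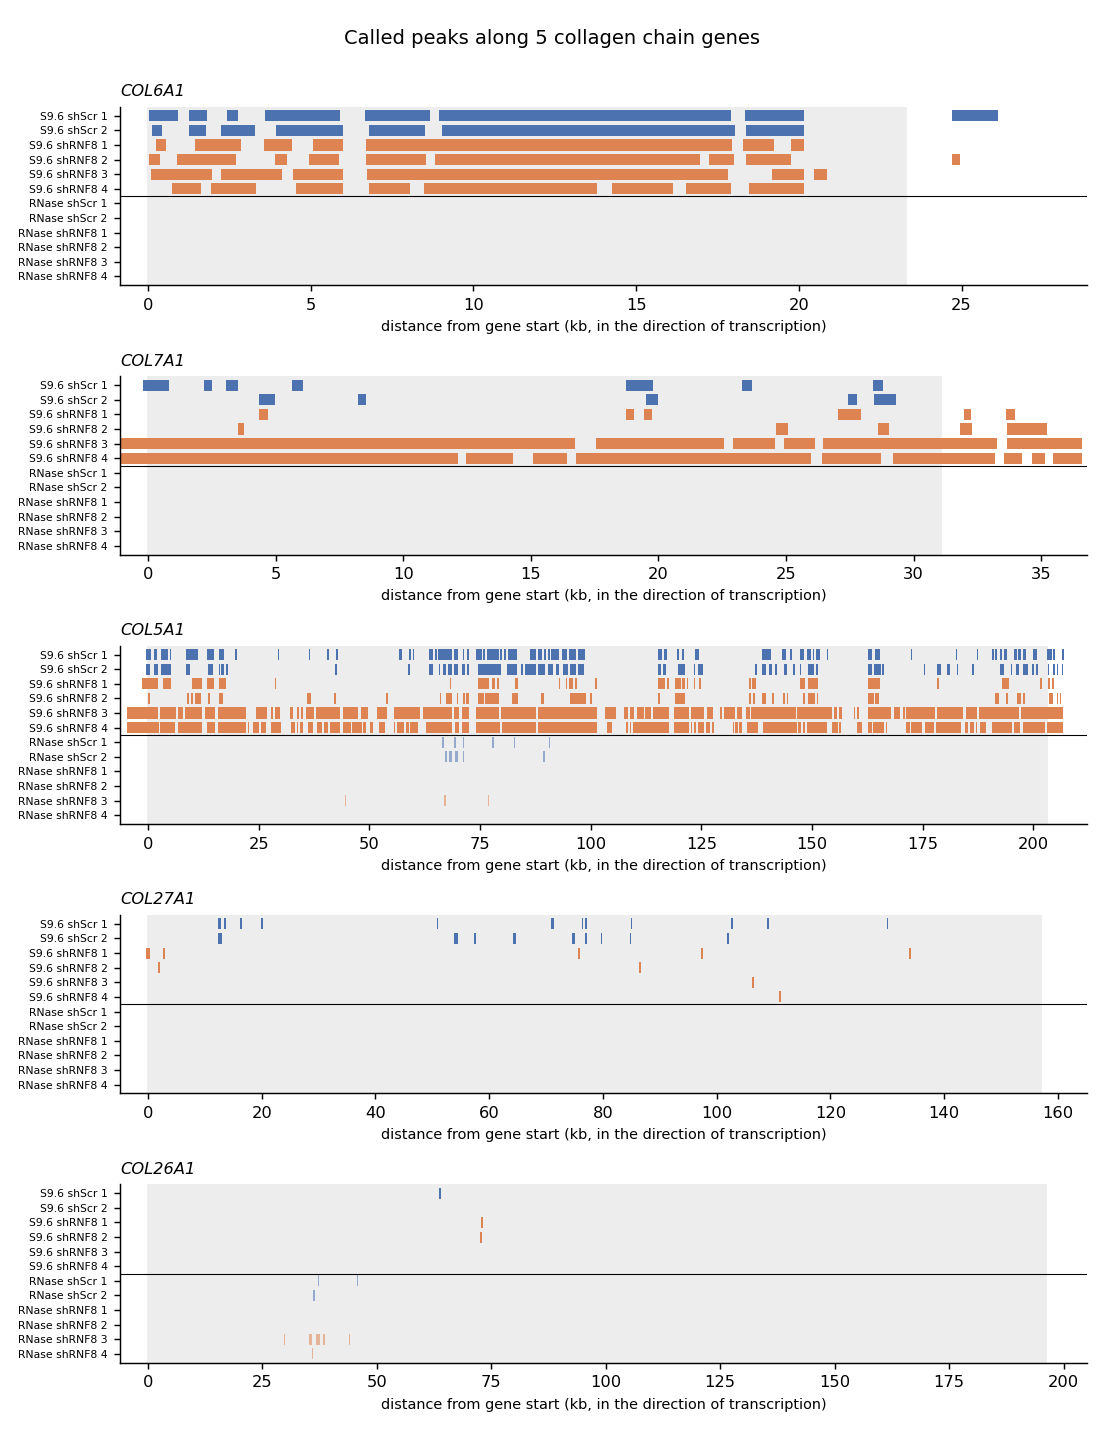
Positions of called peaks along COL6A1, COL7A1, COL5A1, COL27A1 and COL26A1, by distance from the gene start in kb, in the direction of transcription. Rows are the 6 S9.6 libraries above the line and the 6 RNase-treated libraries below it, shScr in blue, shRNF8 in orange, the gene body in grey and the 5000 bp after it in white. COL7A1 is covered nearly end to end in shRNF8 replicates 3 and 4 and in short stretches elsewhere, and COL27A1 has 12 and 9 short peaks in shScr and 5, 2, 1 and 1 in shRNF8.

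S9.6 peaks from the 6 libraries that shared at least 1 bp were joined into regions, and 219 regions lay over collagen genes. A region was called in all 6 libraries for 43 of them (19.6%, all regions 10.9%), of which COL5A1 held 14 and COL18A1 11. In both shScr and no shRNF8 library there were 3 regions (1.37%, all regions 2.49%), all in COL27A1. They lay at chr9:114167839-114168517 over an exon, chr9:114232404-114232745 in an intron and chr9:114240241-114240697 over an exon (hg38). In all 4 shRNF8 and no shScr library there were 5 regions (2.28%, all regions 0.73%). COL18A1 held 3 of these in introns, at chr21:45412498-45414852, chr21:45428997-45431242 and chr21:45438419-45440458. COL6A2 held 1 in an intron, at chr21:46110354-46111487. COL7A1 held 1 past its end, at chr3:48558547-48561618, where UCN2 also lies in the window. Regions of the 2 kinds thus fell in different collagen genes, and the counts of 5 and 3 are small.

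COL9A3 had 1 and 0 peaks in shScr and 2, 2, 13 and 11 in shRNF8, and was the only collagen gene with more peaks in every shRNF8 library (4.35% of 23, all genes with a peak 2.15%). The genes TCFL5 and DPH3P1 reach into its window, and COL9A3 itself had 19 counts in all. By bases COL16A1, COL23A1 and COL9A3 were higher without overlap (13.0%, all genes 7.49%). COL11A2 had 1 peak near its start in each shScr library and none in the 4 shRNF8 libraries, the only collagen gene with that layout (4.35%, all genes 2.01%). Its RefSeq start lies 669 bp further upstream, outside that window, and the 250 bases before it held a peak in shRNF8 replicates 2 and 3. No collagen gene had a peak in all 4 shRNF8 and in neither shScr library (all genes with a peak 0.728%).

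Some peaks over collagen genes were called in the RNase-treated libraries. They overlapped 3 of the 44 genes, 6.82% against 2.78% of all genes. The collagen genes are longer, with a median span of 133206 bp against 17238 bp. COL5A1 had 6 and 5 RNase-treated peaks in shScr and 0, 0, 3 and 0 in shRNF8. COL26A1 had 2 and 1 in shScr and 0, 0, 5 and 1 in shRNF8, while its S9.6 peaks numbered 1 and 0 in shScr and 1, 1, 0 and 0 in shRNF8. COL26A1 thus had more peaks in the RNase-treated than in the S9.6 libraries, and with 49 counts in all it was below the filter in RNA. COL4A1 had a peak in 1 RNase-treated library, shRNF8 replicate 3, and none in S9.6.

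RefSeq promoter sequences (GRCh38.p14) were at hand for 32 of the 44 genes, and the 250 bases before each start were read. For collagen genes 1 promoter per gene was kept, the one nearest the start in the count table. The set of all RefSeq promoters kept every distinct window, so the 2 sets are not alike. A peak overlapped these bases in at least 1 S9.6 library for 8 of the 32 (25.0%, all RefSeq promoters 32.5%). COL5A1 and COL6A2 led with 5 of 6 libraries each, both shScr libraries included, and COL7A1 had 3. COL11A2, COL12A1, COL16A1, COL18A1 and COL27A1 had a promoter peak in 1 or 2 shRNF8 libraries and in no shScr library. The share of all RefSeq promoters with this layout was not taken, and there were 4 shRNF8 but only 2 shScr libraries. For all of these genes but COL27A1 the libraries included shRNF8 replicate 3 or 4, which stood apart over the genome. Promoters are shown for the pair with the most frequent peaks and for COL27A1 and COL17A1, which changed in opposite directions in RNA. Each is written 5′ to 3′ on the strand of the gene, ending at the base before the start. Capitals mark GGGCGG, the GC box, and TATAAA, the TATA box, on either strand, so that CCGCCC and TTTATA count too, and the 2 motifs do not overlap in these sequences. COL5A1 comes from chr9:134641555-134641804 (plus strand), COL6A2 from chr21:46097862-46098111 (plus strand), COL27A1 from chr9:114155287-114155536 (plus strand) and COL17A1 from chr10:104085881-104086130 (minus strand).
COL5A1: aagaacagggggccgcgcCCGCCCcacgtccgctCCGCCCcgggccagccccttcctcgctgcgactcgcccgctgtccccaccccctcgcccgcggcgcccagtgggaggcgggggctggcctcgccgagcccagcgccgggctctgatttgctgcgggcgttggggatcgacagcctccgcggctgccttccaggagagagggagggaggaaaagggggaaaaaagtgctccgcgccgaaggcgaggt
COL6A2: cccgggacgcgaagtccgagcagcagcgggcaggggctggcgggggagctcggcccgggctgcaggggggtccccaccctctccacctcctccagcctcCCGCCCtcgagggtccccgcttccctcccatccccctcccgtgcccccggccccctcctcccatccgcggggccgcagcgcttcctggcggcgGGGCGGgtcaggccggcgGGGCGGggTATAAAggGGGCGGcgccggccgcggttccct
COL27A1: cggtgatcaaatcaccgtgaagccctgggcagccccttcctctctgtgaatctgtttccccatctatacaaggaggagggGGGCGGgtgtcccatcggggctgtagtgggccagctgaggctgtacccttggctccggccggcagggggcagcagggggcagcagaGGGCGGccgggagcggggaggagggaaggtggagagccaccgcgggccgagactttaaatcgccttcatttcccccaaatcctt
COL17A1: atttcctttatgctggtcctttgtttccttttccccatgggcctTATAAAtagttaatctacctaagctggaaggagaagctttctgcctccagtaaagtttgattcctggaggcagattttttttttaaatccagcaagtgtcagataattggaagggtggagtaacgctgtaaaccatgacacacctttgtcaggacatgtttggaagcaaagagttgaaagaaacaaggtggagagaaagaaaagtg

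The first 3 are rich in G and C, at 74.0% for COL5A1, 79.6% for COL6A2 and 64.4% for COL27A1, and hold 2, 4 and 2 GC boxes. COL6A2 and COL17A1 each hold 1 TATA box. COL17A1 had 40.4% G and C, no GC box and 1 CpG, and it had no promoter peak in any library. Over the 32 promoters the median was 65.8% G and C, against 58.0% over 34789 RefSeq promoters. GGGCGG was found in 20 of the 32 (62.5%, all promoters 42.6%) and TATAAA in 6 (18.8%, all promoters 10.8%). The median was 72.8% G and C for the 17 promoters of genes with an S9.6 peak anywhere in the window and 60.4% for the 15 without, as a description. The full RefSeq promoter windows of COL4A1 and COL4A2, 300 bases that run past the start, share 226 bases. The 250 bases before each start had 77.6% G and C for COL4A1 and 78.8% for COL4A2, and neither gene had a promoter peak there. COL4A2 nonetheless had peaks in all 6 libraries further into the gene, where COL4A1 had none.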

How the data were processed

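RNA was measured in 6 libraries and DNA-RNA hybrids in 6 S9.6 and 6 RNase-treated libraries. The 3 inputs were not analysed here. The authors deposited raw counts of read pairs per gene, made with featureCounts 2.0.1 and an hg38 annotation with no strand option, per the file headers. For DRIP-seq the authors deposited 1 list of peaks for each library, giving per peak a fold enrichment (a linear ratio) and −log10 p-values and q-values. The submitters' processing notes name MACS2 (version 2.2.7.1), Bowtie2 (2.2.6), deepTools (3.5.1), Picard (2.10.9), STAR (2.7.9a), Subread (2.0.1), Trim Galore (0.6.6), SAMtools (1.14) and the build hg38, with no roles. The labels name the enzyme only as RNase. Depth in reads is not known for DRIP-seq.

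Counts were fitted in R 4.3.3 with edgeR 4.0.16 (filterByExpr, TMM, robust glmQLFit, glmQLFTest, group as the only term), on all 14018 genes that passed the filter, with Benjamini-Hochberg adjustment over all of them. The SE is the size of the log2 fold change divided by the square root of F. CPM per kb used the length of the merged exons, from the exon coordinates in the count table without alternate contigs. Peaks on chromosomes 1 to 22 and X that shared at least 1 bp with a gene or the 5000 bp after its end were counted in Python 3.11.15, and groups were compared by two-sided exact permutation over libraries. The edgeR fit and the counting of peaks over genes were tested on simulated data, and the permutation tests were not. The simulated counts had the same dispersion for all genes and no library that stood apart. Per-library values are given for collagen genes that were called, those at 5 CPM or more with groups apart, and the 6 highest per kb, and in DRIP-seq for genes with a peak in all 6 S9.6 libraries or in all of 1 hairpin only. Further members were named after their values were seen. The result of 1 called gene of the matrix lists is not reported here. Members and lists were chosen with earlier results of these data known. Alternatives were other scalings, filters, DESeq2 1.42.0, a replicate block, leaving out each library, and other peak rules.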

Additional observations from a re-analysis of the deposited data

How the results depend on the processing

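All 4 collagen calls had their direction in every alternative that gave a value. Counts of genes called moved with the fit. DESeq2 called 859 genes in all against 356, and 6 collagen genes lower against 3, adding COL12A1, COL5A1 and COL8A1. With no filter 648 genes and 2 collagen genes higher were called, COL22A1 being the addition. Scaling by library size alone called 0 collagen genes higher (COL17A1, edgeR adjusted p = 0.0509), and so did a filter at 5 CPM, which left COL17A1 out. Leaving out each library gave 46 to 3865 calls in all, 0 to 2 collagen genes higher and 0 to 11 lower. The extremes of 3865, 2 and 11 came without shScr replicate 1. The values of COL6A2, COL6A1 and COL16A1, none of them called, changed sign without shScr replicate 1 (-0.13, -0.015 and -0.0025), and those of COL6A2 and COL6A1 without shRNF8 replicate 2 (-0.068 and -0.051). Over the fits that left out a library they ran from -0.13 to 0.14 for COL6A2, -0.051 to 0.12 for COL6A1 and -0.0025 to 0.20 for COL16A1. The cause of these changes was not tested.

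Replicate numbers did not pair the RNA libraries (same-number correlations of -0.054, 0.11 and -0.23). With the replicate block edgeR called 501 genes and the same 4 collagen genes. In DRIP-seq the replicate block (replicates 1 and 2) gave a difference of -1.5 collagen genes with a peak against 0.25, and of 0.0138 percentage points in their share of peaks against -0.0092.

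The DRIP differences between hairpins changed sign with small choices and none passed an exact permutation test. Genes with a peak differed by 0.0 when the summit had to lie inside and by -0.5 at a −log10 q of at least 5. Using only shRNF8 replicates 1 and 2, an alternative added after seeing the data, gave -1.5. Leaving out each library gave -3.25 to 3.75, with -3.25 without shScr replicate 2, -0.5 without shRNF8 replicate 3 and -0.17 without shRNF8 replicate 4. The share of peaks differed by 0.0177 points at the stricter q, 0.0108 with equal numbers of peaks, 0.0138 with shRNF8 replicates 1 and 2 only, and 0.0631 by bases (the last 2 also added after seeing the data). Leaving out each library gave -0.0272 to 0.0098, with 0.0070 without shScr replicate 2 and 0.0098 without shRNF8 replicate 3. The difference between S9.6 and RNase-treated libraries was 13.4 to 16.9 genes when a library was left out. With 2 shScr libraries no DRIP comparison of the hairpins can pass an exact test at 0.05.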
